A study of Mus musculus with 12 samples.

Results

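The response of macrophages to the Syk inhibitor R788 was compared between cells kept in tumor-conditioned medium (TCM) and cells kept without it. The question was which genes answer the inhibitor in 1 way without TCM and in another way with TCM. Bone marrow derived macrophages (BMDMs) of C57BL/6 mice were used after 5 days in culture. For 24 h they received TCM or none, and R788 at 500 nM or none (fostamatinib, a prodrug whose active form blocks the kinase Syk). TCM was taken from 2 mouse neuroblastoma lines, NB9464, in which MYCN is amplified, and NBT3L, in which it is not. All 12 libraries of the series entered, in 6 groups of 2: no TCM and no R788 (NS, libraries SJ1 and SJ2), NB9464 TCM (SJ3 and SJ4), NBT3L TCM (SJ5 and SJ6), R788 (SJ7 and SJ8), NB9464 TCM + R788 (SJ9 and SJ10) and NBT3L TCM + R788 (SJ11 and SJ12). The interaction of a gene is the mean of its R788 effects in both TCM, each on the log2 scale, minus its R788 effect without TCM. It is higher (positive) where R788 raised the gene more or lowered it less with TCM, and lower (negative) in the reverse case. By the methods, NB9464 TCM was serum-free DMEM from the tumor cells, and the BMDMs were grown in RPMI with serum. The medium given to cells without TCM, the vehicle of R788 and the making of NBT3L TCM were not described, so factors from the tumor cells and a change of base medium cannot be told apart. Nothing says that the 2 libraries of a group came from separate cultures or mice, and p-values then measure the spread between these libraries, which may be technical.

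Syk is a cytoplasmic tyrosine kinase that docks on phosphorylated ITAM motifs of receptor chains such as Fcer1g and Tyrobp. Through these adaptors it passes on signals of activating Fc receptors, of C-type lectins such as dectin-2, and of integrins, to phospholipase C gamma, the Card9 complex, ERK and PI3 kinase. In macrophages it is known for phagocytosis of antibody-coated targets, the oxidative burst and cytokine production.

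Library totals lay between 44977847 and 56449685 counts, and between 16149 and 18343 genes had at least 1 count. Library SJ8, of the R788 group, had the highest total and the fewest genes. Over the 10715 genes averaging 100 or more normalized counts, the SD of the log2 difference within a pair of replicates was 0.371 in the R788 group, against 0.230 to 0.261 elsewhere. Since every interaction rests on the R788 pair, counts without SJ7 or without SJ8 are given beside the list and class counts that they moved by more than 1.5 times. Macrophage markers were present in all groups: the summed normalized counts of 10 macrophage markers, among them Lyz2, Adgre1, Csf1r and Cd68, were between 1643910 and 2738300. Lyz2 held most of this sum, with 1389542 to 2030783 counts per library before normalization. Csf1r had 83030 to 168271 counts, and the lowest marker, Mertk, 1247 to 5647. In bulk RNA, fewer cells of a type and less RNA per cell cannot be told apart.

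Of 16281 genes tested, 2372 were called in the averaged interaction at an adjusted p under 0.05 (DESeq2, Benjamini-Hochberg), 14.6% of those tested. They comprised 1239 with a higher value (7.61%) and 1133 with a lower one (6.96%). This balance turned under upper quartile scaling, with 1066 higher and 1236 lower, and without SJ7 it was 1851 higher and 1384 lower. Against each medium singly, R788 differed from no TCM for 2032 genes in NB9464 TCM (12.5%) and for 1649 in NBT3L TCM (10.1%), and these interactions share the 4 libraries without TCM. The effect of R788 itself was called most often without TCM, where it raised 11.6% of the tested genes and lowered 15% (1882 and 2445 genes, but 2167 and 2157 under upper quartile scaling). The corresponding shares were 5.79% and 8.7% in NB9464 TCM and 5.33% and 7.24% in NBT3L TCM. Calls grew with the level of a gene, from 3.99% of genes with a mean of 30 to 100 normalized counts to 46.3% of the 902 genes with a mean of 10000 or more, for which the median SE of the interaction was 0.075. None of the 4064 genes with a mean under 30 could be called, because DESeq2 sets such low genes aside and gave them no adjusted p. Among them, 322 had an unadjusted p under 0.05 and edgeR called 27. By gene type, 17.3% of protein-coding genes, 3.31% of long non-coding RNAs and 1.41% of pseudogenes were called. Without SJ7 the count was 3235, without SJ8 1954 and without SJ2, an NS library, 1481, and 353 of the 2372 had an interaction of at least 1 on the log2 scale in either direction.

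For most called genes the estimated R788 effect was larger without TCM. It was the larger in absolute size for 1929 of the 2372 (81.3%). The median absolute log2 effect was 0.48 without TCM and 0.17 as the mean of both TCM. These genes were selected by the difference of the same effects, and the R788 pair without TCM had the widest replicate spread. Averaging both TCM also lowers noise and lets opposite effects cancel. Each of these favors a larger value without TCM, and the share over all tested genes is not given. The comparison therefore cannot show whether R788 acted more strongly without TCM. For 1168 genes (49.2%), R788 was called without TCM and in neither TCM: 668 of these fell and 500 rose with R788. Another 296 genes moved in 1 direction in all 3 media. Of these, 143 fell more deeply without TCM and 68 fell more deeply with TCM, while 79 rose more without TCM and 6 rose more with it. A further 171 genes were called in both TCM, in 1 direction, and not without TCM. The most divergent class, 63 genes, was called without TCM and in both TCM in opposite directions, 38 raised without TCM and lowered with it and 25 lowered without and raised with it. The remaining 674 had other combinations of calls. Over all 16281 tested genes, whether or not the interaction was called, 2444 had R788 called without TCM only. In the same count 889 were called in 1 direction in all 3 media and 341 in both TCM only. Such a pattern of calls alone therefore does not show an interaction. These classes combine calls of separate contrasts, and a missing call in 1 medium does not show that R788 had no effect there. The class sizes moved with single libraries. Genes called only without TCM numbered 702 without SJ2 and 777 without SJ8, and the both-TCM class held 107 without SJ6. Genes with opposite calls numbered 127 without SJ7 but 41 without SJ2 or SJ10, 33 without SJ5, 38 without SJ6, and 37 without SJ11 or SJ12. The class with 1 direction in all media held 197 genes without SJ1, 191 without SJ5, 190 without SJ6 and 193 without SJ11, and the remaining combinations 409 without SJ2.

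**Figure D1:**
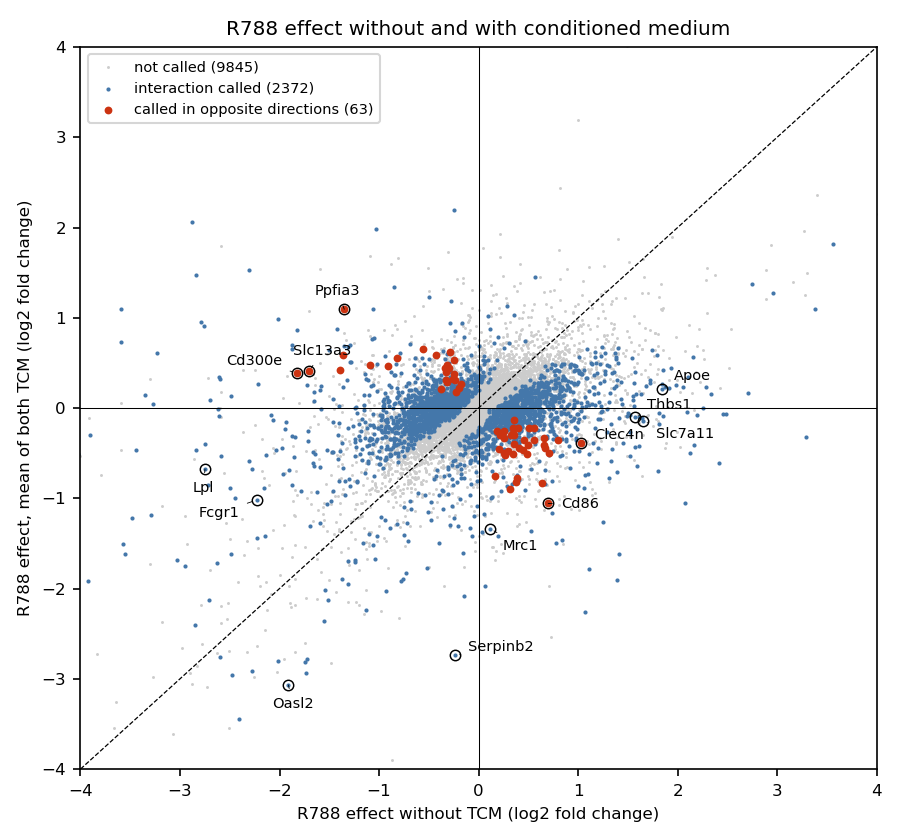
Each point is a gene; the x axis is its R788 effect without TCM and the y axis the mean of its effects in both TCM (log2 fold changes), with the dashed line marking equal effects. Called genes (blue, 2372, of which 19 lie outside the plotted range) sit mostly along the x axis, the 63 genes with opposite calls (red) lie in the upper left and lower right, and grey points are uncalled genes with a mean of at least 30 normalized counts; genes of the text are ringed.

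Syk itself showed no detectable interaction (0.02 ± 0.063, SE, adjusted p = 0.894): its transcript was 15428 and 14546 normalized counts in NS and 18344 and 17601 with R788, 34238 and 33632 in NB9464 TCM and 41094 and 43780.2 with R788 added, and 37102 and 37581 in NBT3L TCM and 44194 and 43852 with R788 added. The inhibitor acts on the protein, so its mRNA is no measure of inhibition. Around it, the receptors, adaptors and effectors of the pathway were split in direction. Of 40 pathway genes, 11 were called higher and 15 lower, with a median of -0.10, beside a median near 0 (0.010) over all tested genes.

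Among the receptors, Fcgr1 (CD64, the high-affinity Fc receptor that signals through the ITAM chain Fcer1g) fell with R788 in every medium, but most without TCM. It was at 13785 and 13973 normalized counts in NS and 3045 and 2874 with R788, 12334 and 12531 in NB9464 TCM and 6557 and 6670.1 with R788 added, and 13530.2 and 13424 in NBT3L TCM and 6198 and 6125 with R788 added. R788 libraries lay below their controls in each medium without overlap, for an interaction of 1.21 ± 0.068 (SE, adjusted p = 2.42e-68). The inhibitory receptor Fcgr2b moved the other way. Its values were 3378 and 3233 normalized counts in NS and 6409 and 5782 with R788, 11205 and 11540.3 in NB9464 TCM and 10366 and 10634 with R788 added, and 12171 and 11794 in NBT3L TCM and 8264 and 7879 with R788 added. R788 raised it without TCM and lowered it in NBT3L TCM, while its log2 effect in NB9464 TCM was -0.12 (adjusted p = 0.242). Its interaction stood at -1.23 ± 0.082 (adjusted p = 3.7e-48), and a gene on the other strand overlaps its exons. Clec4n (dectin-2), a lectin receptor that uses Syk, and the adaptor Pik3ap1 (BCAP), which links to PI3 kinase, had interactions of -1.42 ± 0.081 (adjusted p = 2.27e-66) and 0.98 ± 0.065 (adjusted p = 1.07e-47). Pik3ap1 went from 23235 and 22020 normalized counts to 12022 and 12071 with R788 without TCM, and its R788 log2 effects in the TCM were 0.14 and -0.01.

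The genes with opposite calls included surface receptors, a transporter and proteases of macrophages. Cd300e (ENSMUSG00000048498, chromosome 11, 115051917 to 115062177, minus strand; GRCm38) is an activating receptor of myeloid cells. It was at 1318 and 1284 normalized counts in NS and 364 and 369 with R788, 9049.9 and 8465 in NB9464 TCM and 12046 and 12227 with R788 added, and 11691 and 11613 in NBT3L TCM and 14324 and 14496 with R788 added. With R788 both libraries dropped below both NS libraries, and in either TCM both lay above their controls. The interaction was 2.22 ± 0.091 (SE, adjusted p = 2.98e-128). Slc13a3 (ENSMUSG00000018459, chromosome 2, 165405028 to 165473230, minus strand), a sodium-coupled transporter of dicarboxylates, had the same pattern. It was at 967 and 967 normalized counts in NS and 259.9 and 332 with R788, 33137 and 33838 in NB9464 TCM and 38689 and 38619.7 with R788 added, and 48199.8 and 46441 in NBT3L TCM and 72476 and 71652 with R788 added. Again no group overlapped with its control, for an interaction of 2.11 ± 0.089 (adjusted p = 8.72e-121). Acp5, the tartrate-resistant acid phosphatase of osteoclasts and macrophages, was at 748 and 814 normalized counts in NS and 371 and 237 with R788, 4498 and 4401 in NB9464 TCM and 7897 and 7289 with R788 added, and 4276 and 4382 in NBT3L TCM and 5869 and 5563 with R788 added, with an interaction of 1.95 ± 0.16 (adjusted p = 3.64e-33).

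Ppfia3, which encodes the scaffold liprin-alpha-3, and Fnbp1l, which encodes the actin regulator Toca-1, completed the 5 largest positive interactions of this class. Ppfia3 was at 92.0 and 145 normalized counts in NS and 53.6 and 39.9 with R788, 740.4 and 787 in NB9464 TCM and 1766 and 1816 with R788 added, and 975 and 913 in NBT3L TCM and 1785 and 1885 with R788 added. Its interaction was 2.44 ± 0.25 (adjusted p = 1.25e-19). For Fnbp1l the R788 effects were -1.40 without TCM against 0.44 and 0.42 with the TCM of NB9464 and NBT3L (interaction 1.82 ± 0.13, adjusted p = 5.14e-45). Exons of Ppfia3 and Acp5 overlap a gene on the opposite strand and Fnbp1l overlaps a microRNA gene on its own strand, and whether counting used the strand was not stated.

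In the reverse direction, raised by R788 without TCM and lowered with it, the 5 largest were Edn1, Cd86, Mmp8, Clec4n and Dusp6. Cd86 (ENSMUSG00000022901, chromosome 16, 36603869 to 36666081, minus strand) is the costimulatory ligand of CD28 on antigen-presenting cells. Its libraries had 479 and 601 normalized counts in NS and 819 and 935 with R788, 509.8 and 478 in NB9464 TCM and 247 and 258 with R788 added, and 691 and 499.9 in NBT3L TCM and 227 and 311 with R788 added. The R788 libraries were the higher pair without TCM and the lower pair in each TCM, with no overlap, for an interaction of -1.76 ± 0.27 (adjusted p = 3.85e-09). Its rise without TCM was not called when SJ8 was left out. Mmp8 (ENSMUSG00000005800, chromosome 9, 7558456 to 7568485, plus strand), a collagenase, was at 10573 and 9448 normalized counts in NS and 15892 and 15168 with R788, 37716 and 36239 in NB9464 TCM and 23072 and 22737 with R788 added, and 34557 and 35213 in NBT3L TCM and 17715 and 18077 with R788 added. The groups did not overlap with their controls, for an interaction of -1.46 ± 0.071 (adjusted p = 9.89e-90). Clec4n was at 2613 and 2672 normalized counts in NS and 5715 and 5098 with R788, 17145 and 17393 in NB9464 TCM and 14972 and 13917 with R788 added, and 23700.1 and 24081 in NBT3L TCM and 16367 and 17099 with R788 added. Its rise without TCM was called, as were its falls in both TCM.

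Dusp6, a phosphatase that is induced by ERK signaling and switches ERK off, was at 4920.4 and 4649 normalized counts in NS and 5982 and 5903 with R788, 4945 and 4647 in NB9464 TCM and 2708 and 2824 with R788 added, and 4352 and 4073 in NBT3L TCM and 1856 and 2330.2 with R788 added. The R788 pairs again lay above NS without TCM and below both TCM controls (interaction -1.21 ± 0.12, adjusted p = 2.18e-22). Edn1, the precursor of the peptide endothelin-1, had 0 counts in both NS libraries and 23.6 and 22.4 normalized counts with R788, at least 8.12-fold higher against a floor of 3 counts per library. In NB9464 TCM it was at 564 and 520.2 and with R788 at 100.5 and 121, and in NBT3L TCM at 332 and 352 and 119 and 133. Its fitted interaction of -8.92 (adjusted p = 8.79e-08) depends on how the fit treats the 0 counts and is no measure of size, and an antisense gene overlaps its exons. Other named members of the class, by their gene lists, were the scavenger receptor Stab1 (-1.21), the iron exporter Slc40a1 (-1.14), the neutrophil chemoattractant Cxcl2 (-1.06), Lilrb4a (-0.92), the prostaglandin E synthase Ptges (-0.81), the interleukin-4 receptor chain Il4ra (-0.62), and Gpnmb (-0.49), each on the log2 scale of the interaction. The lysosomal protease Lgmn (0.44) and the GTPase Rac2 (0.42) belonged to the genes lowered without TCM and raised with it. Of the named genes, Slc40a1, Lilrb4a, Ptges and Rac2 did not keep opposite calls in edgeR. By edgeR, 43 of the 63 genes kept opposite calls, and 57 did without SJ7 and 48 without SJ8.

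**Figure D2:**
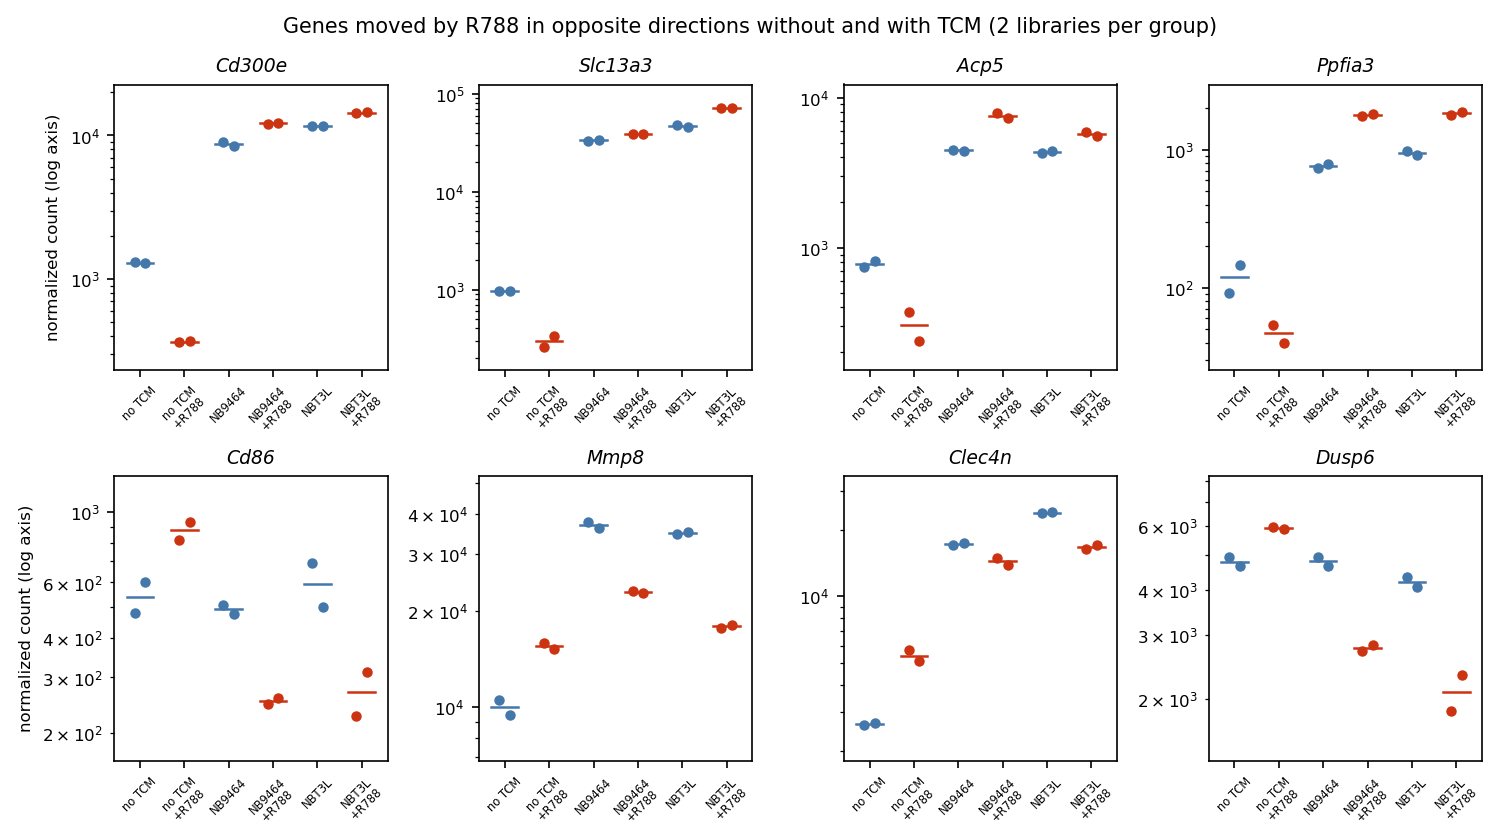
Normalized counts (log axis) of 8 genes with opposite R788 calls, one point per library, 2 libraries per group, and a line at the group mean; blue is without and red with R788. In the upper row R788 lies below the control without TCM and above it in both TCM, and in the lower row the order is reversed.

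Of the 171 genes called in the interaction, and for R788 in both TCM but not without TCM, 111 fell and 60 rose with R788 in TCM. Their median absolute R788 effect on the log2 scale was 0.090 without TCM, against 0.46 and 0.44 with the TCM of NB9464 and NBT3L. A contrast of this kind follows from how the class was defined. Mrc1 (ENSMUSG00000026712, chromosome 2, 14229392 to 14332057, plus strand) encodes the mannose receptor CD206, an endocytic receptor much used as a mark of alternatively activated macrophages. It was at 28261 and 26069 normalized counts in NS and 27829.6 and 31158 with R788, 2812 and 2517 in NB9464 TCM and 888 and 872 with R788 added, and 4716 and 4424 in NBT3L TCM and 2095 and 2225 with R788 added. The NS and R788 libraries without TCM overlapped, whereas each R788 pair in TCM lay below its control, for an interaction of -1.46 ± 0.095 (SE, adjusted p = 1.53e-50). Ccr1, a receptor for chemokines such as Ccl3 and Ccl5, was at 3721 and 3913 normalized counts in NS and 3588 and 3283 with R788, 3559 and 3519.8 in NB9464 TCM and 1159 and 1347 with R788 added, and 3603 and 4008 in NBT3L TCM and 1387 and 953 with R788 added. Its fall was called in both TCM and not without TCM, where the log2 effect was -0.15 (adjusted p = 0.447), with an interaction of -1.45 ± 0.17 (adjusted p = 1.95e-16).

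Serpinb2, the plasminogen activator inhibitor PAI-2, had the largest negative interaction of this class, -2.51 ± 0.43 (adjusted p = 2.43e-07). Its libraries had 121 and 58.8 normalized counts in NS and 92.7 and 60.7 with R788, 1505 and 1562 in NB9464 TCM and 203 and 271 with R788 added, and 9650.1 and 10346 in NBT3L TCM and 1390.2 and 1505 with R788 added. The pairs without TCM overlapped, and part of its exons is shared with Serpinb10 on the same strand. Gcnt2 and the long intergenic non-coding RNA gene Gm6634 followed with -1.35 (adjusted p = 0.00586) and -1.25 (adjusted p = 0.0249). Neither was called without SJ8 (adjusted p = 0.0618 and 0.101), and Gm6634 was also not called when SJ1, SJ2, SJ4, SJ6, SJ10 or SJ12 was left out. The chemokine Ccl6 was at 10265 and 10746 normalized counts in NS and 12709 and 10309.5 with R788, and in TCM R788 took it from 9917 and 10352 to 5188 and 5103 (NB9464) and from 9192 and 9335 to 4495 and 4771 (NBT3L; interaction -1.12 ± 0.1, adjusted p = 2.56e-25).

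Genes raised by R788 in TCM alone were fewer. Cd79b, an ITAM-bearing chain best known from the B cell receptor, was at 174 and 118 normalized counts in NS and 67.3 and 139 with R788, 238 and 206 in NB9464 TCM and 522 and 437 with R788 added, and 166 and 158 in NBT3L TCM and 404 and 416 with R788 added (interaction 1.72 ± 0.4, adjusted p = 0.000275). Its partner chain Cd79a had at most 30 counts in any library, and Pax5 and nearly all Ms4a1 values were 0, so the B cell list rested on Cd79b. Cd5l, a secreted scavenger-receptor protein of tissue macrophages, was at 3053 and 3119.6 normalized counts in NS and 2379 and 2675 with R788, 295 and 360.4 in NB9464 TCM and 575 and 464 with R788 added, and 271 and 229 in NBT3L TCM and 577 and 578 with R788 added. The R788 pairs lay above their controls in each TCM and below NS without it, where the difference was not called (log2 effect -0.29, adjusted p = 0.112; interaction 1.23 ± 0.18, adjusted p = 3.73e-10). The pseudogene Nxpe1-ps had an interaction of 1.46 (adjusted p = 1.14e-05). Fcrl5 and Shisa3, the other genes the rule named, had at most 4 and 4 counts in any library without TCM, and edgeR called neither (adjusted p = 0.0617 and 0.0772).

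**Figure D3:**
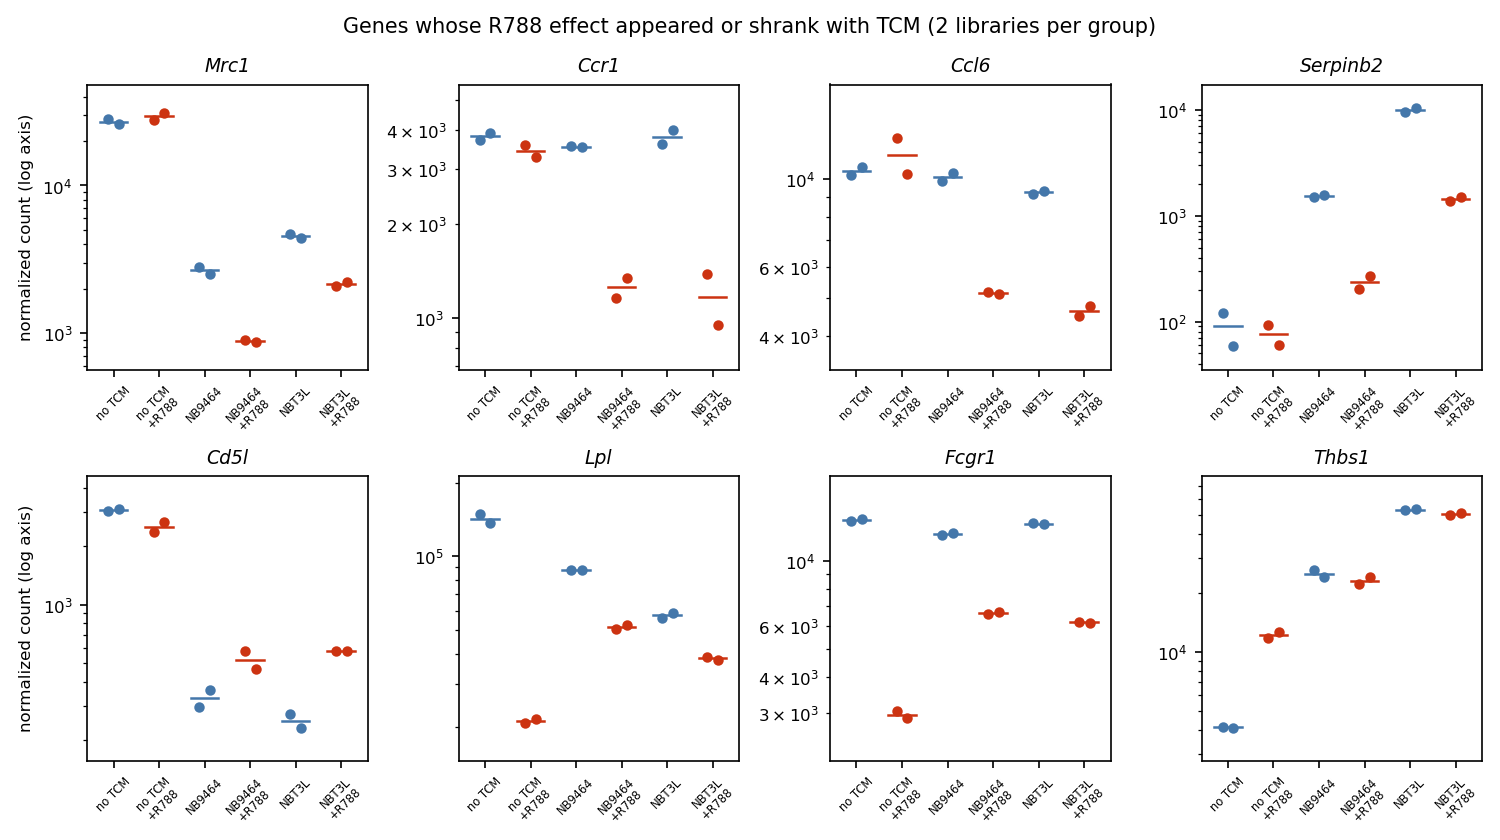
Normalized counts (log axis) of 8 genes, one point per library, 2 libraries per group, lines at group means; blue is without and red with R788. For Mrc1, Ccr1, Ccl6, Serpinb2 and Cd5l the R788 effect was called in both TCM and not without TCM, Lpl and Fcgr1 fall with R788 most without TCM, and Thbs1 rises with R788 without TCM only.

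Ranked by size, and keeping to genes that averaged 100 or more normalized counts, the largest positive interactions were mostly of genes near 0 without TCM. Of these 12, 7 had at most 3 counts in both R788 libraries. Draxin, a secreted axon guidance protein, was at 0 and 15.2 normalized counts in NS and 0 and 0 with R788, 674 and 675 in NB9464 TCM and 1300 and 1447 with R788 added, and 1449 and 1490 in NBT3L TCM and 2292 and 2529 with R788 added. Ascl2, Gm6553, Itgb8, Fcrl5, Zfp811 and Shisa3 were likewise low without TCM and far higher with it. Their R788 effects in TCM differed, and in NBT3L TCM those of Gm6553 and Itgb8 were -0.03 and -0.30, neither called. For these genes the ratio without TCM rests on a handful of counts, so the fitted size is not interpretable. Itgb8, Fcrl5 and Shisa3 lost their call without SJ7 and also without SJ8, Zfp811 without SJ8. Without SJ2, Draxin, Fcrl5, Zfp811 and Shisa3 were not called, nor Gm6553 and Itgb8 without SJ1. Shisa3 also lost its call when SJ3, SJ5 or any of SJ9 to SJ12 was left out. The other 5 were Vegfc, Mgarp, Kcnk12, Efr3b and Cd38. Vegfc, a growth factor of lymphatic vessels, went from 95.8 and 107 to 0 and 7.98 normalized counts with R788 without TCM, and from 132 and 111 to 134 and 104 in NB9464 TCM, and it also fell in NBT3L TCM (adjusted p of the interaction = 5.67e-08). Kcnk12, a potassium channel gene, was lowered without TCM, from 452 and 393 to 141 and 67.9, and had R788 effects of 1.10 and 0.87 in TCM (interaction 3.01 ± 0.51, adjusted p = 1.09e-07). Efr3b fell from 586 and 471 to 49.1 and 123 (2.61, adjusted p = 0.000248). Cd38, an enzyme that consumes NAD, was far more abundant with TCM, with a lowest value of 10856 normalized counts over the 8 TCM libraries against 78.9 and 24.7 in NS and 7.27 and 9.58 with R788 (2.53, adjusted p = 0.000392). Mgarp had 6 and 0 counts with R788 without TCM, so its fitted interaction (3.75, but 7.89 without SJ7) is no measure of size, and it was not called without SJ2. Other fitted values also moved with 1 library, for Cd38 to 1.45 without SJ1 and 3.13 without SJ2, for Efr3b to 3.42 without SJ8 and for Kcnk12 to 3.62 without SJ7.

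The largest negative interactions after Edn1 included the neutrophil chemokine Cxcl5, which was at 1.88 and 5.69 normalized counts in NS and 20.9 and 51.9 with R788, 631 and 742 in NB9464 TCM and 626 and 614 with R788 added, and 1978 and 2159 in NBT3L TCM and 1493 and 1439 with R788 added. It rose with R788 without TCM and fell in NBT3L TCM (interaction -3.61 ± 0.58, adjusted p = 1.64e-08). With 2 and 6 counts in NS its size is uncertain, and it was -2.79 without SJ8, -3.02 without SJ1 and -4.62 without SJ2. Ptger3, a receptor for prostaglandin E2, rose from 116 and 80.6 to 268 and 561 normalized counts without TCM, while R788 effects in TCM were -0.87 and -1.23 (interaction -3.12 ± 0.58, adjusted p = 1.83e-06, and -2.49 without SJ8). Soat2, which esterifies cholesterol, rose from 59.2 and 73.0 to 305 and 360.1 (-2.17, adjusted p = 0.000107). Of the same form, with a rise called only without TCM, were 1700071M16Rik (-2.55), Adh7 (-2.63), Slc16a9 (-2.54, but -5.01 without SJ2 and not called without SJ1), Gm32089 (-2.27) and the phosphodiesterase Pde10a (-2.25). The antisense gene 1700071M16Rik overlaps exons of Pla2g7, and Adh7 and Slc16a9 also overlap genes on the opposite strand, so reads of the partners cannot be told apart. Beside Serpinb2, described above, the 2 others, Ifi213 and Ifi206, are interferon-induced genes of a family with near-identical copies, so their counts are uncertain. Both were called lower in all media and had R788 libraries at or near 0 in TCM, and neither interaction was called without SJ7 or without SJ8, nor when SJ3, SJ4 or SJ6 was left out. Ifi213 also lost its call without SJ1 or SJ2, and Ifi206 without SJ5.

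**Figure D4:**
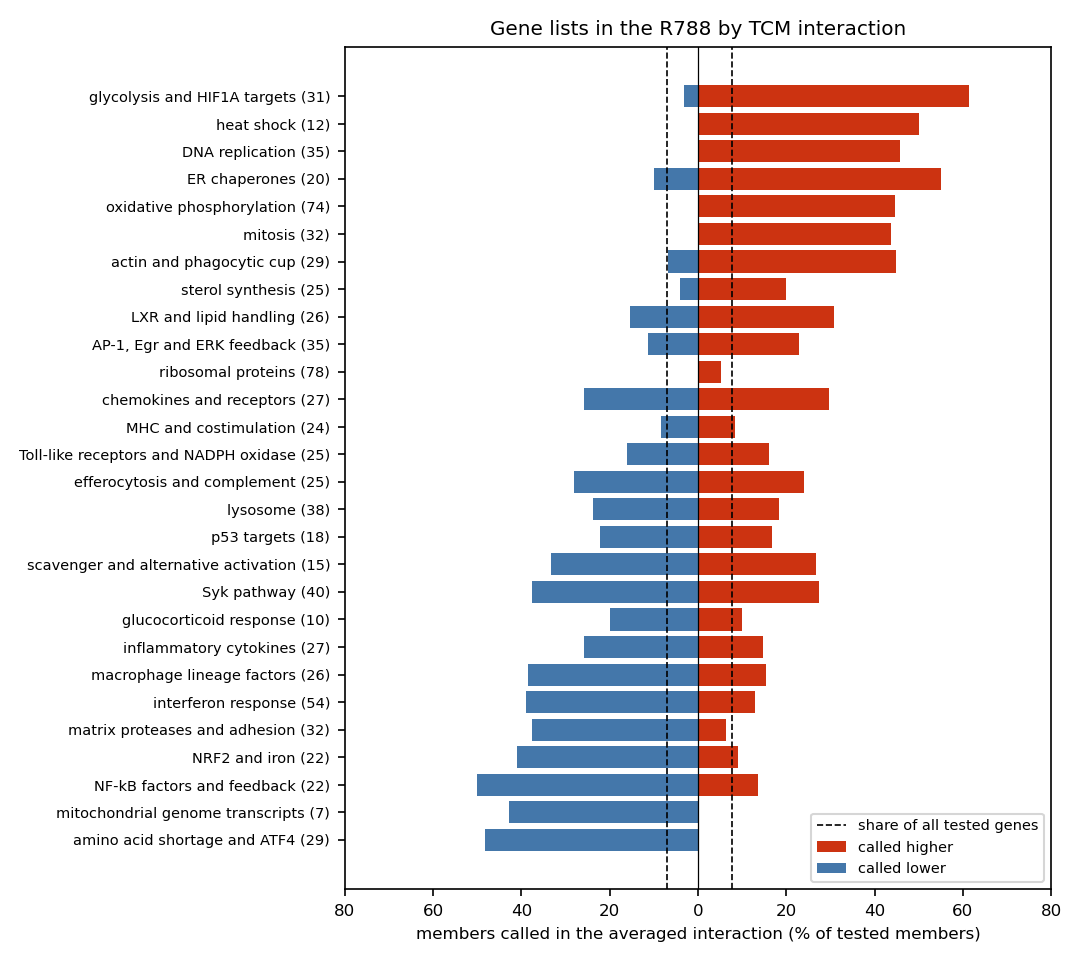
Share of the tested members of each of 28 gene lists (number tested in parentheses) that were called higher (red, right) or lower (blue, left) in the averaged interaction; dashed lines are the shares of all tested genes, 7.61% and 6.96%. Glycolysis, heat shock, DNA replication and ER chaperone genes lean to higher values, and amino acid shortage, NF-kB and NRF2 genes to lower ones. Calls grew with the level of a gene, and the dashed lines are not matched to the level of list members.

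Glycolytic enzymes and other textbook targets of the hypoxia factor HIF1A had the largest share of members called higher among the 28 lists. In this list, 19 of the 31 tested members were called higher and 1 lower, with a median interaction of 0.44. Shares of this and the other lists were not matched for level. Calls in either direction covered 24.4% of all tested genes averaging 1000 to 10000 normalized counts, and a larger share above that level. The median R788 effect of the list was -0.35 without TCM against -0.01 and 0.08 with the TCM of NB9464 and NBT3L, and R788 lowered 21 members without TCM, but 7 and 2 with these TCM. Tpi1, the triose phosphate isomerase, was at 35416 and 37060.3 normalized counts in NS and 21378 and 20274 with R788, 48755 and 49495 in NB9464 TCM and 49095 and 49767 with R788 added, and 68033 and 66402 in NBT3L TCM and 73362 and 72417 with R788 added. The R788 pair lay below NS without TCM, the pairs overlapped in NB9464 TCM, and R788 lay above in NBT3L TCM (interaction 0.86 ± 0.056, adjusted p = 1.83e-50). Lactate dehydrogenase Ldha was at 68701 and 72074 normalized counts in NS and 42239 and 40345 with R788, 104225 and 113271 in NB9464 TCM and 104617 and 100735 with R788 added, and 145530 and 141620 in NBT3L TCM and 149449 and 151244 with R788 added, with an interaction of 0.76 ± 0.063 (adjusted p = 8.56e-31). Pgk1, which makes ATP in glycolysis, and Pdk1, which holds pyruvate back from the mitochondria, had interactions of 0.85 ± 0.077 and 0.75 ± 0.076 (adjusted p = 7.9e-26 and 6.83e-21). The single member called lower, Hk2 (named after its value was seen), which encodes a hexokinase, was not called without SJ2, without SJ8 or by edgeR. Promoter windows from 250 bases before to 50 bases after the start of transcription were read for ACGTG, the core of hypoxia response elements. On either strand it stood in 21 of 28 members with a window (75%) and in 14 of 19 called members. The shares were 21.8% of all genes, 28.3% of tested genes and 31.7% of genes called higher.

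Nuclear-encoded subunits of the respiratory chain and ATP synthase moved the same way in smaller steps. Here 33 of the 74 tested members were called higher and 0 lower (median 0.31). R788 lowered 24 of them without TCM and raised 18 in NB9464 TCM. The 4 raised in NBT3L TCM are near the share of all tested genes, 5.33%. Atp5b, the catalytic beta subunit of ATP synthase, was at 42029 and 43454 normalized counts in NS and 34742 and 31981 with R788, 51996 and 54259 in NB9464 TCM and 55407 and 55654 with R788 added, and 55143 and 51349 in NBT3L TCM and 52649 and 53163 with R788 added (interaction 0.38 ± 0.066, adjusted p = 1.94e-07). Sdhc of complex II, Cox7b of complex IV and Atp5g3 of ATP synthase had interactions of 0.48, 0.64 and 0.39 (adjusted p = 6.44e-07, 1.64e-05 and 3.2e-05). This count depended on single libraries: 48 were called higher without SJ7, 25 without SJ8 and 13 without SJ2. Ribosomal protein genes depended on them more, and with all libraries their share called higher lay under the 7.61% of all tested genes. They had 4 of 78 called higher and 0 lower, the members being Rps27l, Rpl15, Rps2 and Rps26, but 49 higher without SJ7, 13 without SJ1, 9 without SJ4 and 0 without SJ2, and 1 was lower without SJ2, SJ3 or SJ7. Of 7 tested transcripts of the mitochondrial genome, mt-Nd6, mt-Nd5 and mt-Co1 were called lower (-0.55, -0.24 and -0.19), whereas without SJ7 3 were called higher and 1 lower, and 1 was called lower without SJ2 or by edgeR. mt-Nd6 and mt-Nd5 overlap on opposite strands.

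R788 lowered most genes of DNA replication in every medium, and most genes of mitosis without TCM and in NB9464 TCM. Of 35 replication genes, R788 lowered 33 without TCM against 27 and 24 with the TCM of NB9464 and NBT3L, and 16 were called higher and 0 lower in the interaction (median 0.30). Pcna, the sliding clamp of DNA polymerases, was at 29326 and 30054 normalized counts in NS and 11689.9 and 10866 with R788, 13999 and 14218 in NB9464 TCM and 9516 and 10229 with R788 added, and 15196 and 15348 in NBT3L TCM and 11234 and 11378 with R788 added. R788 lowered it in each medium (interaction 0.92 ± 0.069, adjusted p = 3.87e-38). Tyms, which makes thymidylate, Rrm2 of ribonucleotide reductase and Gins2 of the replicative helicase had interactions of 0.81, 0.55 and 0.74 (adjusted p = 8.67e-10, 2.62e-07 and 3.39e-06). Of the mitosis genes R788 lowered 28 without TCM against 20 and 10 with the TCM of NB9464 and NBT3L, with medians of -0.57, -0.34 and -0.20. In that list 14 of the 32 tested members were called higher and 0 lower (median 0.31), among them cyclin Ccnb1 (0.47), the checkpoint kinase Bub1 (0.54), Aurkb (0.58) and Ube2c (0.47). Without SJ1 and without SJ2 the count of mitosis genes was 9 and 8. The replication promoters were read for E2F-like letters, since E2F factors drive these genes in S phase. TTTCCCGC (either strand) stood in 14.3% of 28 windows of the list and in 1.24% of all genes with a window, and TTTGGCGC in 17.9% and 0.585%. Among the 14 called members with a window, 1 held the former and 2 the latter, and the shares of all tested genes were 2.34% and 1.05%. In the mitosis list TTTGAA, the core of an element of mitotic promoters, stood in 20 of 27 windows (74.1%), in 7 of 10 called members and in 20.2% of all genes with a window. Mcm7, a subunit of the replicative helicase, is the called member that holds TTTCCCGC (chr5:138171834-138172133, minus strand, RefSeq, GRCm38.p6). Its match, in capitals, lies on the opposite strand to the gene, 165 bases before the start site:
Mcm7: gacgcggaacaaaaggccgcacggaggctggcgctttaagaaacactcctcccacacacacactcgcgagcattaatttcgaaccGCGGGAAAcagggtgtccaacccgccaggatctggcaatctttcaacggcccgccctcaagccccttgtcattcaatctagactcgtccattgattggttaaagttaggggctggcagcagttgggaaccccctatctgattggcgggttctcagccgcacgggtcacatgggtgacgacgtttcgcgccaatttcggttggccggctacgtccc
The letters are shown 5′ to 3′ on the strand of the gene.

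Chaperones followed the same direction. In the endoplasmic reticulum list 11 of the 20 tested members were called higher and 2 lower (median 0.30), and the median R788 effect was -0.39 without TCM against -0.05 and -0.05 with the TCM of NB9464 and NBT3L. Calr, the calcium-binding chaperone calreticulin, was at 71256 and 70138 normalized counts in NS and 41447 and 39546 with R788, 104419 and 110491 in NB9464 TCM and 103261 and 103956 with R788 added, and 139584 and 140210 in NBT3L TCM and 129196 and 131981 with R788 added. R788 lay below the control in each medium, but the difference was called without TCM only (interaction 0.73 ± 0.055, adjusted p = 7.27e-38). The disulfide isomerases Pdia6 and Pdia3 and the cochaperone Sdf2l1 had interactions of 0.56, 0.45 and 0.79 (adjusted p = 6.28e-20, 1.51e-08 and 8.26e-13). Of 12 cytosolic heat shock genes 6 were called higher and 0 lower, led by Hsp90aa1 (0.43), Hspa8 (0.19), Hsph1 (0.39) and Dnaja1 (0.25), but 3 by edgeR, without SJ2, without SJ9 or without SJ12. In the list of actin and the phagocytic cup 13 of the 29 tested members were called higher and 2 lower, with 7 higher under upper quartile scaling and 8 when SJ1, SJ2, SJ5, SJ9 or SJ12 was left out, and 1 lower by edgeR or without SJ1, SJ2, SJ8, SJ9 or SJ11. Gelsolin (Gsn), which severs actin filaments, went from 40684 and 39729.5 to 30354 and 29882 normalized counts without TCM and had R788 effects of 0.11 and 0.21 in TCM (interaction 0.58 ± 0.055, adjusted p = 1.28e-23). Tmsb4x, Rac2 and Arpc5 had 0.68, 0.42 and 0.26.

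Genes induced by amino acid shortage through the factor ATF4 leaned lower. In this list 0 of the 29 tested members were called higher and 14 lower (median -0.27), and without SJ7 2 were called higher. R788 raised 18 of them without TCM against 4 and 7 with the TCM of NB9464 and NBT3L. Slc7a11, the cystine importer that feeds glutathione synthesis, was at 1336 and 1422 normalized counts in NS and 3964 and 4713 with R788, 33048 and 28305 in NB9464 TCM and 28852 and 31193 with R788 added, and 32083 and 31255 in NBT3L TCM and 26322 and 26655 with R788 added. R788 lay above NS without TCM, while in TCM the pairs overlapped (NB9464) or R788 lay below (NBT3L), for an interaction of -1.80 ± 0.1 (adjusted p = 1.14e-64). Phgdh, the first enzyme of serine synthesis, was at 648 and 713 normalized counts in NS and 2347 and 2861 with R788, 1779 and 1837 in NB9464 TCM and 2158 and 2313 with R788 added, and 248 and 360.3 in NBT3L TCM and 498 and 412 with R788 added (interaction -1.49 ± 0.2, adjusted p = 2.08e-12). The factor Atf5 and the seryl-tRNA synthetase Sars had interactions of -1.43 ± 0.12 and -0.64 ± 0.078 (adjusted p = 5.68e-28 and 1.88e-14), and exons of Atf5 overlap genes on the opposite strand. ATF4 binds composite C/EBP-ATF elements, so the same windows were read for TGATGNAA on either strand. It stood in 10 of 24 members with a window (41.7%), in 5 of 12 called members and in 4.51% of all genes with a window. The called member with the smallest adjusted p that holds it is Slc7a11 (chr3:50443564-50443863, minus strand, shown 5′ to 3′), with its 2 matches in capitals, 1 on each strand:
Slc7a11: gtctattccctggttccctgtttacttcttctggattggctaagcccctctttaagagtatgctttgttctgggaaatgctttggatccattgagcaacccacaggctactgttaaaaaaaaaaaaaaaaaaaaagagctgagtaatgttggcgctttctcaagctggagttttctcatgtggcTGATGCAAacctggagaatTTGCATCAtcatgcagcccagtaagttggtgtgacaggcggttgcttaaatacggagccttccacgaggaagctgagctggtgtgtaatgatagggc
A match is a description of these letters, not of binding.

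Genes of the oxidant response (NRF2) and of iron handling also leaned lower, where 2 of the 22 tested members were called higher and 9 lower (median -0.10). Slc40a1 (ferroportin), which exports iron from macrophages, was at 4343 and 4366 normalized counts in NS and 7477 and 7626 with R788, 1149 and 1022 in NB9464 TCM and 818 and 799.7 with R788 added, and 1155 and 1267 in NBT3L TCM and 1029.7 and 974 with R788 added. Its R788 pair was above NS without TCM and below the control in each TCM (interaction -1.14 ± 0.11, adjusted p = 3.91e-22). In edgeR its R788 effects did not keep opposite calls. Nqo1 and Gclm, textbook NRF2 targets, had interactions of -0.96 and -0.55 (adjusted p = 2.2e-10 and 3.35e-20), and the peroxidase Gpx1 0.58 (adjusted p = 2.51e-07).

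Interferon-stimulated genes fell with R788 in every medium, and for part of them more deeply with TCM. Of 54 tested members, R788 lowered 50 without TCM against 49 and 52 with the TCM of NB9464 and NBT3L, 49 of them in all 3, with medians of -1.68 without TCM against -1.76 and -1.91 with the TCM of NB9464 and NBT3L. In the interaction, 21 were called lower and 7 higher (median -0.29), the fall being deeper with TCM for the former. Oasl2, an antiviral protein of the oligoadenylate synthetase family, was at 18700.1 and 18604 normalized counts in NS and 4617 and 5300.4 with R788, 5715 and 5532 in NB9464 TCM and 639.6 and 669 with R788 added, and 8721 and 8511 in NBT3L TCM and 1089 and 1019.9 with R788 added. All R788 pairs lay below their controls (R788 effects -1.91 without TCM against -3.10 and -3.03 with the TCM of NB9464 and NBT3L), for an interaction of -1.16 ± 0.094 (adjusted p = 4.6e-32). Oas3 and Oas2, which sense double-stranded RNA, and the growth regulator Slfn5 had interactions of -1.05 ± 0.1, -1.10 ± 0.11 and -1.11 ± 0.12 (adjusted p = 1.39e-23, 1.39e-21 and 1.31e-17). Near-identical copies exist among Oas, Ifit and Ifi200 genes, and how reads mapping to several places were counted was not stated. Without SJ2, 13 were called lower, and without SJ8 16 were lower and 7 higher.

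Interferon-stimulated genes are switched on through elements of the form GAAANNGAA. These letters, on either strand, stood in 29 of 44 members with a window (65.9%), in 16 of 23 called members, and in 9.76% of all genes with a window. Over all called genes the shares were 8.78% for lower and 10.4% for higher interactions. The called member with the smallest adjusted p that holds it is Oas3 (chr5:120777610-120777909, minus strand, shown 5′ to 3′, RefSeq, GRCm38.p6), where 2 overlapping matches, in capitals, begin 75 and 69 bases before the start site:
Oas3: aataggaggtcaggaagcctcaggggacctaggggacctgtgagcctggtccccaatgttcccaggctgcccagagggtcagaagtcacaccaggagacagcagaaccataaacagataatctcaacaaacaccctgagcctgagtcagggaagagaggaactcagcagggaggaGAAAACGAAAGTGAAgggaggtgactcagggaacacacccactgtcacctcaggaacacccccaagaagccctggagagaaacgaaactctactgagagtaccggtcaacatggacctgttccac
The window of Oasl2 does not hold these letters.

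**Figure D5:**
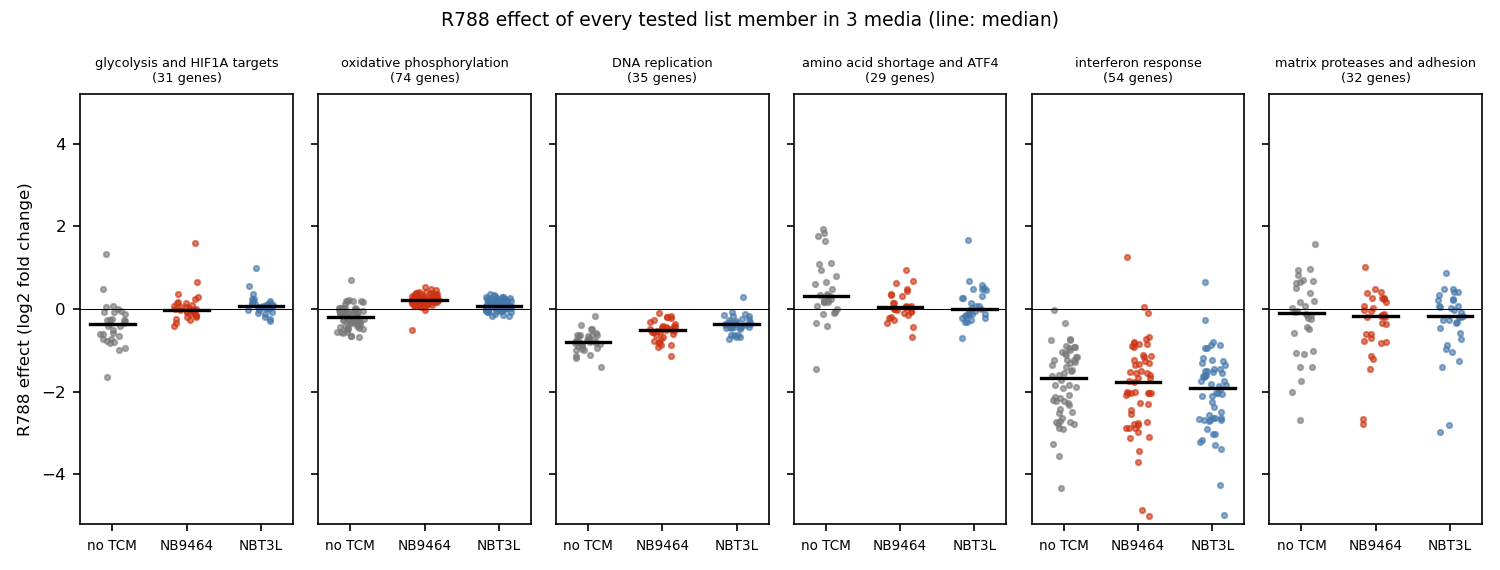
R788 effect (log2 fold change) of every tested member of 6 gene lists without TCM (grey), in NB9464 TCM (red) and in NBT3L TCM (blue), with black lines at the medians; values beyond 5 in size are drawn at the edge (Ifi213 in NB9464 TCM). Glycolysis and replication medians move up toward 0 with TCM, the amino acid shortage median moves down to near 0, and the interferon median stays between -1.68 and -1.91.

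NF-kB factors and their feedback inhibitors leaned lower, where 3 of the 22 tested members were called higher and 11 lower (median -0.20). R788 raised 11 of them without TCM against 10 and 8 with the TCM of NB9464 and NBT3L. The median R788 effects were 0.23, 0.22 and 0.08 in the same order, but members differed between media. In the interaction with NB9464 TCM alone 3 were called higher and 9 lower (median -0.17). With NBT3L TCM it was 3 and 10 (median -0.24). Over all tested genes 12.5% and 10.1% were called in these interactions. Tnfaip2 and Sod2, targets of NF-kB, had interactions of -0.73 and -0.75 (adjusted p = 1.09e-19 and 1.94e-17). Members called higher included Tnip3, an inhibitor of NF-kB signaling, and Gadd45b, a stress-induced gene. Tnip3 was at 7696 and 7792 normalized counts in NS and 3307 and 3257 with R788, 6531 and 6391 in NB9464 TCM and 6673 and 6739 with R788 added, and 7479 and 7701 in NBT3L TCM and 7327 and 7379 with R788 added. It fell without TCM only (interaction 1.24 ± 0.071, adjusted p = 1.5e-65), and Gadd45b had 1.42 ± 0.18 (adjusted p = 3.98e-14). Among immediate early genes and ERK feedback genes 8 of the 35 tested members were called higher and 4 lower. Fos, a subunit of AP-1, fell from 3438 and 3779 to 1635 and 1440.3 normalized counts without TCM, with R788 effects of 0.21 and -0.18 in TCM (interaction 1.24 ± 0.13, adjusted p = 9.72e-20). Atf3 and Dusp1 had 0.90 and 0.48 (adjusted p = 2.2e-27 and 0.000129). The AP-1 letters TGANTCA stood in 0 of 26 windows of this list, against 8.97% of all genes with a window.

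Cytokines and chemokines were split. Of the cytokine list 4 of the 27 tested members were called higher and 7 lower, and of the chemokine list 8 of the 27 tested members were called higher and 7 lower. The median of the cytokine list was -0.20, and without SJ7 it was 0.18 with 6 members higher and 6 lower. Il10, an anti-inflammatory cytokine, was at 179 and 169 normalized counts in NS and 81.8 and 75.8 with R788, 672 and 786 in NB9464 TCM and 912 and 941 with R788 added, and 509.9 and 441 in NBT3L TCM and 634 and 623 with R788 added. It fell with R788 without TCM, where the groups did not overlap, and lay above the controls in both TCM without a call (interaction 1.52 ± 0.25, adjusted p = 3.26e-08). The siderophore-binding protein Lcn2 and the acute phase protein Saa3 had interactions of 0.83 ± 0.089 and 1.12 ± 0.18 (adjusted p = 9.75e-19 and 2.68e-08), and Saa3 has close paralogs. For Lcn2 the R788 effects were -0.78 without TCM against 0.29 and -0.19 with the TCM of NB9464 and NBT3L. Its effects in the TCM were called in opposite directions (adjusted p = 6.31e-05 and 0.0203). Cxcl2, which draws neutrophils, was at 565 and 577 normalized counts in NS and 924 and 876 with R788, 10292 and 10969 in NB9464 TCM and 8564 and 7716 with R788 added, and 15020.3 and 15203 in NBT3L TCM and 11232 and 11186 with R788 added. It was raised without TCM and lowered in both TCM (interaction -1.06 ± 0.097, adjusted p = 1.7e-25). Ccl9 had an interaction of -0.56 (adjusted p = 1.35e-19).

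Lipid genes held the smallest adjusted p of all named genes. Lpl, the lipase that frees fatty acids from lipoproteins, was at 148325 and 136458 normalized counts in NS and 20814 and 21553 with R788, 87650.3 and 87999 in NB9464 TCM and 50608 and 52371 with R788 added, and 56049 and 58765 in NBT3L TCM and 38914 and 37717 with R788 added. R788 lowered it in each medium without overlap, and by far less with TCM (R788 effects -2.75 without TCM against -0.77 and -0.58 with the TCM of NB9464 and NBT3L; interaction 2.07 ± 0.063, adjusted p = 5.04e-232). The desaturase Scd2 had the same form, from 9276 and 8616 to 2246 and 2119.7 normalized counts without TCM (interaction 1.57 ± 0.085, adjusted p = 1.28e-73). Apoe, the apolipoprotein that carries cholesterol out of macrophages, moved oppositely. It was at 5447 and 6055 normalized counts in NS and 18913 and 22259.7 with R788, 1933 and 2319.6 in NB9464 TCM and 2752 and 2679 with R788 added, and 1953 and 2074 in NBT3L TCM and 2109 and 2147 with R788 added, and its interaction was -1.62 ± 0.12 (adjusted p = 1.03e-39). In the whole lipid list 8 of the 26 tested members were called higher and 4 lower. Of 25 sterol synthesis genes 5 were called higher and 1 lower, with 2 higher without SJ1 or SJ2 and 3 without SJ6. R788 lowered 18 of the 25 without TCM against 13 and 6 with the TCM of NB9464 and NBT3L.

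Matrix proteases and adhesion molecules leaned lower: 2 of the 32 tested members were called higher and 12 lower (median -0.12), with 4 higher without SJ7. Thbs1, the matrix glycoprotein thrombospondin-1, was at 4139.9 and 4068 normalized counts in NS and 11788 and 12582 with R788, 25967 and 23965 in NB9464 TCM and 22147 and 23906 with R788 added, and 52808 and 53175 in NBT3L TCM and 49701 and 50663 with R788 added. R788 lay above NS without TCM, and slightly below the controls in both TCM without a call (interaction -1.67 ± 0.072, adjusted p = 3.14e-115). Mmp14, a membrane-bound collagenase, rose from 2596 and 2615 to 4939 and 5114 normalized counts without TCM and had R788 effects of -0.01 and 0.02 in TCM (interaction -0.95 ± 0.063, adjusted p = 2.52e-48). Plaur, the urokinase receptor, had R788 effects of -0.21 without TCM against -1.20 and -1.41 with the TCM of NB9464 and NBT3L (interaction -1.10 ± 0.099, adjusted p = 1.65e-26).

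The remaining lists held calls in both directions, given here as higher and lower, beside 7.61% and 6.96% of all tested genes. The counts of antigen presentation are near these shares, and lists with only a few called members cannot be told from them. They were 4 and 5 of 15 scavenger and alternative activation genes, 7 and 9 of 38 lysosomal genes, 6 and 7 of 25 genes of efferocytosis and complement, 4 and 4 of 25 Toll-like receptor and NADPH oxidase genes, 4 and 10 of 26 lineage factors, 2 and 2 of 24 genes of antigen presentation, 1 and 2 of 10 glucocorticoid targets and 3 and 4 of 18 p53 targets. Several of these small counts moved by more than 1.5 times with 1 library, as in efferocytosis (2 lower without SJ1, 3 without SJ2 or SJ5), scavenger receptors (2 higher without SJ1, SJ4, SJ6, SJ8 or SJ12), Toll-like receptors (2 higher without SJ1), antigen presentation (1 higher under upper quartile scaling or without any 1 of SJ1 to SJ3, SJ5, SJ6 and SJ9 to SJ12), glucocorticoid targets (2 higher without SJ7) and p53 targets (5 higher without SJ7). Stab1, a scavenger receptor, was at 96302 and 92735 normalized counts in NS and 149283 and 159770 with R788, 58212 and 53914 in NB9464 TCM and 33809 and 35838 with R788 added, and 51441 and 51424 in NBT3L TCM and 41791 and 41243 with R788 added. Its R788 pair lay above NS without TCM and below the control in each TCM (interaction -1.21 ± 0.066, adjusted p = 1.59e-72). Tlr2, which senses bacterial lipoproteins, rose with R788 in all media and most without TCM (R788 effects 1.37 without TCM against 0.74 and 0.49 with the TCM of NB9464 and NBT3L; interaction -0.76 ± 0.067, adjusted p = 1.98e-27). Cebpd, a myeloid transcription factor, and Fas, a death receptor and p53 target, had the same form, with interactions of -0.95 ± 0.083 and -1.44 ± 0.12 (adjusted p = 9.86e-28 and 2.15e-31). Psap, the precursor of the saposins of the lysosome, had an interaction of -0.51 (adjusted p = 8.79e-24).

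Markers of other cells were mostly low. Summed normalized counts over all libraries ran from 7.19 to 58.5 for T or NK cells, 13.3 to 134 for erythroid cells or megakaryocytes, 41.8 to 164 for mast cells, basophils or eosinophils, 36.4 to 170.3 for dendritic cells and 147 to 515 for neuroblastoma, where Th and Chga were at 0 in all 12 libraries and Elavl4 held most counts. None of the tested members of these 5 lists was called in the interaction by DESeq2 or edgeR, and 1 mast cell list gene and 1 erythroid list gene had an unadjusted p under 0.05. Most of them were too low for an adjusted p. Without SJ7, Lck of the T or NK cell list was called higher and Itga2b of the erythroid list lower (adjusted p = 0.0276 and 0.0315). Fibroblast markers were higher with R788: 1916 to 2275 in NS and 3731 to 4032 with R788, 2512 to 2673 and 3589 to 3793 in NB9464 TCM, and 3149.9 to 3423 and 4878 to 4904 in NBT3L TCM. In the interaction 1 of 8 was called higher, Pdgfrb, and 1 lower, Acta2, and neither was called without SJ7 or without most other single libraries, while Col1a1 was called lower without SJ4, SJ7 or SJ10 and under upper quartile scaling. The osteoclast sum fell with R788 without TCM, from 2097 to 2177 in NS to 1134 to 1418. In NB9464 TCM it was 6090.3 to 6114 against 8207 to 8758 with R788, higher with R788 and led by Acp5. In NBT3L TCM the rise was smaller, 6228 to 6423 against 6596 to 6921 with R788. In the interaction 1 of its 4 tested members, Acp5, was called higher and 1, Ctsk, lower, and without SJ7 Ocstamp was also higher. The neutrophil list had sums of 6629 to 11482 and 0 of 9 members called by DESeq2 or edgeR, 2 of them with an unadjusted p under 0.05, and S100a8 and S100a9 called higher without SJ7, but S100a8 lower without SJ8. The part of these cells in the gene lists above was not tested. Where a pathway list had 0 members in a direction, edgeR also had 0, and at an unadjusted p under 0.05 there were 0 except for 2 mitochondrial transcripts higher and 1 ribosomal protein gene lower.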

How the data were processed

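Poly(A) RNA of 12 BMDM libraries was sequenced, and the authors deposited 1 table of whole-number counts per gene (unit: count) without normalization. By the methods and processing notes, reads were aligned to mm10 with STAR 2.6.1d, and Salmon 1.4.0, SAMtools 1.9, Picard 2.26 and MultiQC 1.11 were run. The program that made the table, its use of strand and its treatment of reads with several matches are not given in the sources used here. Between 65.2% and 67.9% of the counts from 1 to 40 were even, so halved counts were tried as an alternative. The labels name paired reads and the methods single reads and triplicates, while each group here has 2 libraries.

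Genes that reached 10 counts in 2 or more libraries (16281 of 54232) were tested with DESeq2 1.42.0 (R 4.3.3), 1 coefficient per group over all 12 libraries, a Wald test for each contrast and Benjamini-Hochberg adjustment over all genes. DESeq2 gave no adjusted p for 4104 of them. Values are log2 fold changes ± SE, levels are counts divided by DESeq2 size factors (normalized counts), and calls are at an adjusted p under 0.05. All p-values rest on 2 libraries per group with a spread shared across groups and genes. The named genes were the 12 largest interactions in each direction averaging 100 or more normalized counts and having 1 sign in all 64 choices of 1 library per group, the 5 largest in each direction of the opposite and both-TCM classes, at most 4 called members of each list by adjusted p, and Syk. Members and lists were chosen with earlier results of these data known. edgeR 4.0.16 (quasi-likelihood), other scalings and filters, and leaving out each library were alternatives. Of the gene IDs, 99.7% were found in GENCODE M21, which gave symbols, GRCm38 positions and overlaps. Sequences are from RefSeq. A few list members that were tested and counted are not reported here by name.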

Additional observations from a re-analysis of the deposited data

Results flagged for a closer look

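The R788 effect differed between cells with and without TCM for 2372 genes (DESeq2, adjusted p under 0.05), and in 63 of them it was called in opposite directions. All 63 tested genes with such opposite calls were called in the interaction. Opposite calls imply a large difference, so the interaction call is no separate support for this class. Among the named genes of this class the interaction on the log2 scale was 2.44 for Ppfia3, 2.22 for Cd300e, 2.11 for Slc13a3, 1.95 for Acp5 and 1.82 for Fnbp1l, all lowered by R788 without TCM and raised with it. In the reverse direction it was -8.92 for Edn1, which had 0 counts in NS, -1.76 for Cd86, -1.46 for Mmp8, -1.42 for Clec4n and -1.21 for Dusp6. The interactions of all 10 were called by edgeR and without any single library, but the rise of Cd86 without TCM was not called when SJ8 was left out. With 2 libraries per group, no test for a single outlying library could be run.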

How the results depend on the processing

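The averaged interaction held 2351 called genes with TMM scaling, 2302 with upper quartile scaling, 2346 without a count filter, 2512 with a mean of at least 50 counts, 2166 with halved counts and 1858 by edgeR. With an absolute log2 value of at least 1, 353 genes remained in the averaged interaction, 383 and 288 in the interactions with NB9464 TCM and NBT3L TCM, and 806, 343 and 314 in the R788 effects without TCM and in each TCM. Leaving out 1 library gave 1481 (without SJ2) to 3235 (without SJ7) for the averaged interaction, 1341 to 2967 for NB9464 TCM and 1034 to 2585 for NBT3L TCM. Calls of the R788 effect itself ran from 3070 to 4678 without TCM, and with TCM they spanned 1419 to 2876 (NB9464) and 1172 to 2558 (NBT3L). A group left with 1 library was assumed to vary like the others. Of 148 called named genes, 25 were not called under at least 1 alternative, 11 of them with a mean under 500 normalized counts. Of 915 recomputed class and list counts, 835 stayed within 1.5 times, and the cause of the other 80 moves was not tested. The both-TCM class held 107 genes without SJ6 and the opposite class 33 to 127. No paired analysis was possible because the labels give no replicate numbers that are shared between groups. The 4064 genes under a mean of 30 normalized counts got no adjusted p from DESeq2, so none of them could be called.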
